A study of Homo sapiens with 6 samples.

Results

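The genes described here are the RAB GTPases and the proteins that load, switch and read them, measured in the human pancreatic cancer line PANC-1 after transfection of a small interfering RNA (siRNA). Membership followed a rule on the gene symbol. Taken were symbols beginning with RAB and a digit, with RABGAP, RABEP, RABGEF, RABIF or RABAC, or with TBC1D and a digit, TBC1D7 apart. The members, the lists they are grouped in and the gene pairs were chosen with earlier results of these data known. The rule took in 117 symbols, read by 162 of the 47230 probes on the Illumina BeadChips, and 63 of the symbols are RAB GTPases or, in the case of RAB9BP1, a pseudogene of one. The 3 arrays of the siNR4A1 group came from cells given an siRNA against the orphan nuclear receptor NR4A1, written siTR4A1 in the sample titles, and the 3 arrays of the siControl group from cells given a control siRNA. Nothing else is stated to differ between the groups, and no label gives the siRNA sequences, the time after transfection or whether replicates were separate cultures, so the p-values speak for the spread among these 6 arrays, which may be technical.

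RAB proteins are small GTPases that mark membranes. Each cycles between an inactive form held in the cytosol by a GDP dissociation inhibitor (GDI) and an active form on a vesicle or organelle, where it recruits effectors such as motors, tethers and sorting adaptors. Guanine nucleotide exchange factors switch RABs on, GTPase-activating proteins, most of them with a TBC domain, switch them off, and a geranylgeranyl lipid added to the tail anchors them in the membrane. In epithelial tumour cells they are known chiefly for the recycling of receptors and integrins and for secretion.

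Mean signal per array lay between 439.3 and 519.6 in siNR4A1 and between 331.7 and 622.7 in siControl, with siControl replicate 3 the brightest array, and the number of arrays limits the precision. A probe counted as detected above the 95% point of its array's background, a signal of 106.6 to 124.8 in siNR4A1 and 96.9 to 131.4 in siControl. NR4A1 itself was below that point with each of its probes on all 6 arrays, so the arrays hold no check of the knockdown. Of 8 ductal and epithelial markers 5 were detected on all 6 arrays, among them KRT8, KRT18 and EPCAM, while KRT7 and CDH1 were detected on none. The raw signals of 4 leukocyte markers summed to 5022.9 to 5925 in siNR4A1 and 2383.4 to 4863.1 in siControl, mostly through the lysosomal protein CD68. CD14, at 119 to 236.9, was also detected on all 6 arrays, while PTPRC was above background on 1 array and CD3E on none, and the part of these markers in the results was not tested.

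Of the 117 members, 83 were detected on at least 3 arrays and were tested, 70 of them on all 6 arrays. Among the 34 that were not tested, 19 were below the detection point with every probe on every array, including RAB25, RAB27B, RAB3D, RAB20 and RAB11FIP4, so these arrays give no level for them. The brightest member probes read RAB10, RAB31 and RAB7A, although signals of different probes cannot be ranked as transcript levels.

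Of the 83 tested members 8 rose, 11 fell and 64 stayed short of the threshold, and their median change was 0.01 on the log2 scale in siNR4A1 relative to siControl (limma, adjusted p under 0.05 over all 13715 genes tested). That is 22.9% of the members, against 19.5% of all genes tested. At 1.5-fold or more, 3 rose and 1 fell, where 2.41% of all genes rose and 2.63% fell that far. By direction, 9.64% of members rose, against 10.8% of all genes, and 13.3% fell, against 8.7%. The median change of all genes was 0.02, so these shares are near the background and the results lie in which members moved. In 33 members, or 39.8%, the arrays of the 2 groups did not overlap, against 35.4% of all genes, and these included all 19 that passed. Among the 19, RAB3B entered the test only through the siNR4A1 arrays, where it was higher. When only the array medians were made equal, without quantile normalization, no gene on the array passed. That was 0 of 13715, with 1089 at an unadjusted p under 0.05 in limma, of which 7 were members. The call of each member named below was lost while its sign was kept. Each array's median signal, from 92.8 to 125, lay below its own detection point, so this setting aligned the arrays at background level. Leaving out siControl replicate 1 left 5 members higher and 6 lower, or 13.3% of members against 14.3% of all genes. The same counts without siNR4A1 replicate 3 stood against 10.9% of all genes. Without siNR4A1 replicate 1 the counts were 5 and 7, or 14.5% against 13.6%. Without siNR4A1 replicate 2 they were 5 and 8, or 15.7% against 12.7%.

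**Figure D1:**
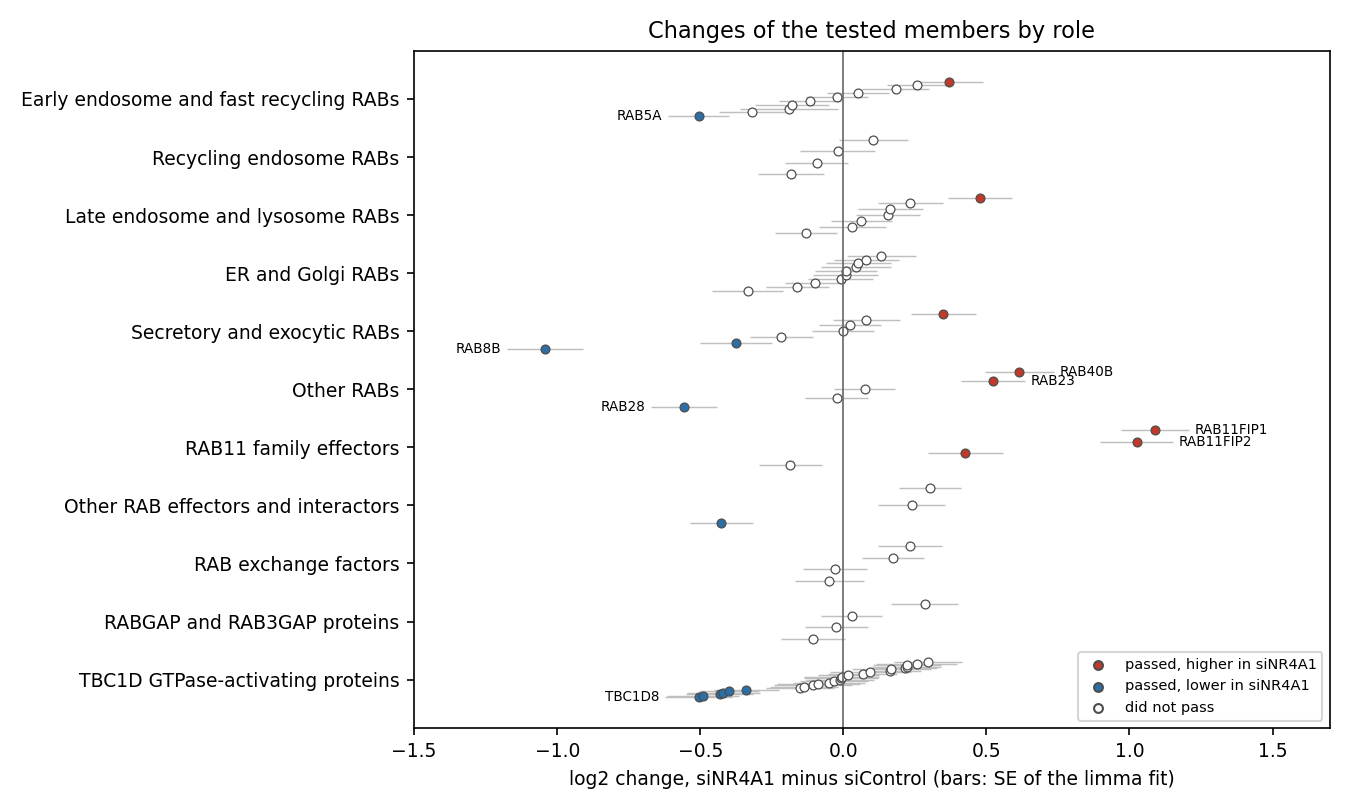
Each point is a tested member, placed by its log2 change in siNR4A1 minus siControl (horizontal axis, bars give the SE of the limma fit) and grouped by role (vertical axis). Red and blue points passed at an adjusted p under 0.05, and the RAB11 effectors RAB11FIP1 and RAB11FIP2, at 1.09 and 1.03, lie opposite RAB8B at -1.04.

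The largest rises were those of RAB11FIP1 and RAB11FIP2. They belong to the RAB11 family-interacting proteins, the effectors through which RAB11 recycles cargo to the cell surface. Of the 4 tested in this family 3 rose and 0 fell, where 10.8% of all genes rose and 8.7% fell. The log2 changes of the 4 ran from -0.18 to 1.09 with a median of 0.73, against 0.02 for all genes. RAB11FIP1, also called RCP, which links RAB11 to the return of integrins and growth factor receptors, had normalized log2 intensities of 8.04, 8.02 and 8.0 in siNR4A1 and 6.96, 6.72 and 7.11 in siControl. The siNR4A1 arrays lay within a few hundredths of each other and all above the control arrays. The gene rose by 1.09 ± 0.12 (SE, n = 3 per group), or 2.13-fold (limma, adjusted p = 1.05e-05). A dimmer second probe, not detected on any siControl array, differed by 0.33 and did not pass (adjusted p = 0.058 over all probes, limma), and one more was below background on all arrays. With the mean of the detected probes in place of the brightest, RAB11FIP1 rose by 0.71.

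RAB11FIP2, which couples RAB11 to the motor myosin Vb, had 9.63, 9.56 and 9.82 in siNR4A1 and 8.48, 8.54 and 8.90 in siControl. Every siNR4A1 array lay above every control array, and the gene rose by 1.03 ± 0.13 (SE), or 2.04-fold (limma, adjusted p = 3.764e-05). Its second probe rose by 0.59 (adjusted p = 0.0288). RAB11FIP5, or Rip11, had 8.44, 8.51 and 8.38 in siNR4A1 and 7.87, 8.34 and 7.85 in siControl, where replicate 2 came close to the siNR4A1 arrays. It rose by 0.43 ± 0.13 (SE; limma, adjusted p = 0.0294), a call lost when any single array other than siControl replicate 2 was left out, with values from 0.34 without siControl replicate 3 to 0.46 without siNR4A1 replicate 3.

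The fourth, RAB11FIP3, known for carrying recycling endosomes to the cleavage furrow in cytokinesis, had 9.43, 9.37 and 9.48 in siNR4A1 and 9.51, 9.58 and 9.75 in siControl. It differed by -0.18 ± 0.11 (SE) and did not pass (limma, adjusted p = 0.267). The GTPases these effectors read did not pass: RAB11A had 10.33, 10.36 and 10.45 in siNR4A1 and 10.47, 10.37 and 10.58 in siControl, a difference of -0.09 ± 0.11 (SE), and RAB11B differed by -0.02 ± 0.13 (SE). None of the 4 tested RABs of the recycling endosome passed, against 19.5% of all genes. The change of RAB11FIP1 exceeded that of RAB11A by 1.18 ± 0.07 (SE of the difference, n = 3 per group) and that of RAB11FIP2 exceeded it by 1.12 ± 0.10 (SE). The arrays of the groups did not overlap in either difference, at an exact two-sided permutation p of 0.1, the smallest that 3 against 3 arrays can give (adjusted p = 0.133 over 12 gene pairs, which were chosen with the changes known).

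**Figure D2:**
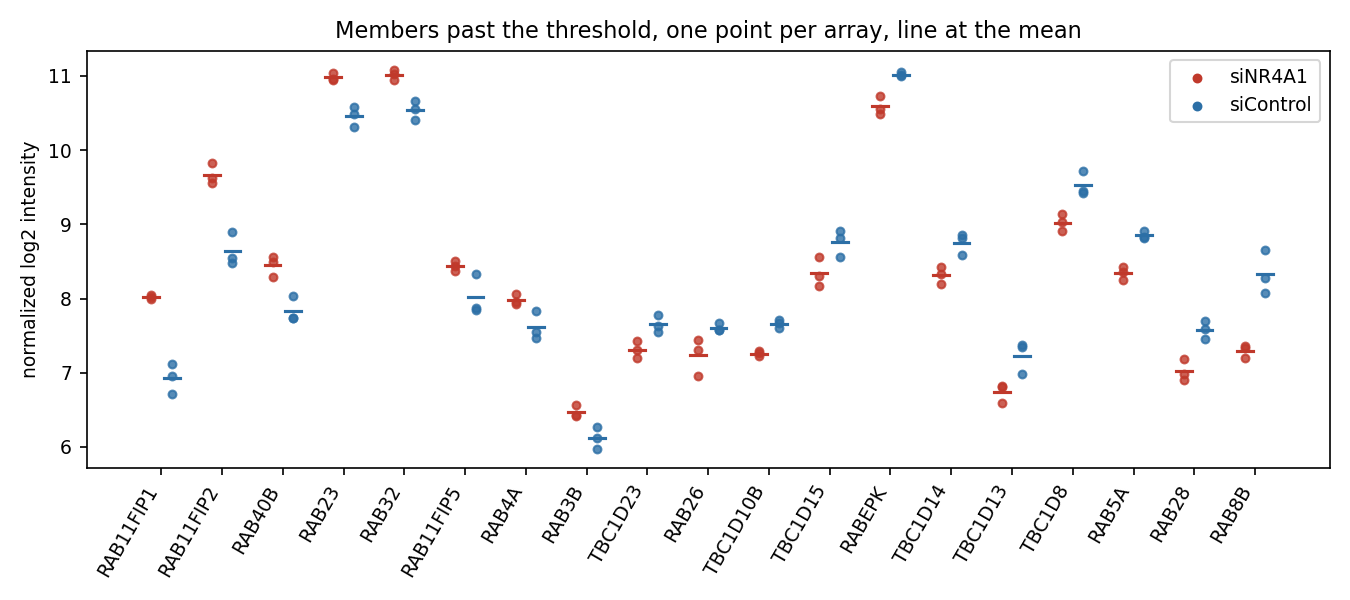
Normalized log2 intensity (vertical axis) of the 19 members that passed, ordered from the largest rise to the largest fall (horizontal axis), with a point for each siNR4A1 array (left) and siControl array (right) and a line at the group mean. In none of them do the groups overlap, and RAB26 shows the widest spread among siNR4A1 arrays, between 6.95 and 7.44.

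In the opposite direction the largest change was that of RAB8B, a GTPase of exocytic and recycling traffic and of the primary cilium. It had 7.36, 7.20 and 7.33 in siNR4A1 and 8.28, 8.08 and 8.65 in siControl, with the groups far apart. It fell by 1.04 ± 0.13 (SE), a 2.06-fold difference (limma, adjusted p = 4.746e-05). Its close paralog RAB8A, which shares these routes, had 9.97, 10.09 and 10.22 in siNR4A1 and 10.09, 9.84 and 10.10 in siControl. These overlapped, at a difference of 0.08 ± 0.12 (SE; limma, adjusted p = 0.6795), and the change of RAB8B minus that of RAB8A was -1.12 ± 0.15 (SE of the difference; exact permutation p = 0.1, adjusted p = 0.133 over the 12 pairs).

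The promoters of RAB8B and RAB8A, and of RAB11FIP2 and RAB11FIP5, which rose together, are shown as the 250 bases before the annotated start (RefSeq, GRCh38.p14), written 5′ to 3′ on the gene's strand. RAB8B lies at chr15:63189356-63189605 (+), RAB8A at chr19:16111639-16111888 (+), RAB11FIP2 at chr10:118046942-118047191 (-) and RAB11FIP5 at chr2:73112949-73113198 (-). Capitals mark the GC box GGGCGG on either strand, the element bound by SP1 family factors, with which NR4A1 is known to act at some promoters.
RAB8B: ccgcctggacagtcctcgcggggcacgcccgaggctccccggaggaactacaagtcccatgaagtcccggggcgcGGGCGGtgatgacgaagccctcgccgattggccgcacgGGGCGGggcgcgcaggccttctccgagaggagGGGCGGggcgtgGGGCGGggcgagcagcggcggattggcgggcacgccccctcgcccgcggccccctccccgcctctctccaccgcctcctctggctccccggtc
RAB8A: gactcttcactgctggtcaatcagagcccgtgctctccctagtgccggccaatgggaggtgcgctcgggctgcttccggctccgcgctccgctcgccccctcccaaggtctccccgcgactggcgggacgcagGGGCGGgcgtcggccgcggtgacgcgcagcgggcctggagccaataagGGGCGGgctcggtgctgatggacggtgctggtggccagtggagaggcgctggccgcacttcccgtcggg
RAB11FIP2: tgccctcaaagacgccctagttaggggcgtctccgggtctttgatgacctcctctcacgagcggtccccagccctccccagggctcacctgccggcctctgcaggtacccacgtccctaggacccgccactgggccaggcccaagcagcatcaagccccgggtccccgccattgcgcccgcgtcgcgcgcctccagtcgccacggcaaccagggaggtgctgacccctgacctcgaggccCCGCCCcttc
RAB11FIP5: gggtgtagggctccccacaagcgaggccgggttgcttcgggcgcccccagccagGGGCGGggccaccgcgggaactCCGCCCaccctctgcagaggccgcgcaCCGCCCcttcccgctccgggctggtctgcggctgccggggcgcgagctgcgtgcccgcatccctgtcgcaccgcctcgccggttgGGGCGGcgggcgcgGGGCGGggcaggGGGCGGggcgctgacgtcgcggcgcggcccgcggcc
RAB8B holds 4 GC boxes, RAB8A 2, RAB11FIP2 1 and RAB11FIP5 6, so a gene that fell, one that did not pass and 2 that rose all carry the element. Among the 70 tested members with an entry in the promoter table, 80% had at least 1 GC box, as did 7 of 7 that rose, 9 of 10 that fell and 40 of 53 that did not pass. For all tested genes with an entry the share was 68.3%, and among all listed promoters it was 42.3%. RAB11FIP1, which rose most, had no entry. The median GC content was 71.2% in promoters of members that rose, 68.8% for those that fell and 65.2% for those that did not pass. For all tested genes it was 65.2%, and the part of GC content in these counts was not tested. The NR4A1 monomer element AAAGGTCA was found on either strand in 0 of the 70 members, in 0.643% of the tested genes and in 1.05% of all promoters. These are counts of letters in a short window and describe no binding.

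Among RABs of the early endosome and of fast recycling, 1 of 10 rose and 1 fell, where 10.8% of all genes rose and 8.7% fell. RAB5A, which drives the fusion of early endosomes, had 8.36, 8.42 and 8.25 in siNR4A1 and 8.83, 8.82 and 8.91 in siControl. All siNR4A1 arrays were lower, and the gene fell by 0.51 ± 0.11 (SE; limma, adjusted p = 0.0035). Its paralog RAB5B had 9.83, 9.78 and 9.75 in siNR4A1 and 10.20, 10.20 and 9.92 in siControl. The groups did not overlap, but the difference of -0.32 ± 0.11 (SE) did not pass (limma, adjusted p = 0.0588). It passed without siControl replicate 3 (-0.41), with the authors' log2 values (-0.31) and with only probes detected on all 6 arrays (-0.32). With replicate number as a block it passed too. RAB5C varied most among control arrays, with 9.03, 9.41 and 9.31 in siNR4A1 and 9.30, 9.94 and 9.07 in siControl, and its probes differed by -0.19 and -0.50, neither past the threshold. The change of RAB5A differed from those of RAB5B and RAB5C by -0.19 ± 0.13 and -0.32 ± 0.31 (SE), with exact permutation p of 0.3 and 0.4 where 3 against 3 arrays cannot give less than 0.1.

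RAB4A, which returns cargo from early endosomes by the short route, had 7.93, 8.07 and 7.95 in siNR4A1 and 7.55, 7.46 and 7.83 in siControl. It rose by 0.37 ± 0.12 (SE; limma, adjusted p = 0.0362), a call lost when any single array other than siControl replicate 3 was left out, with values from 0.30 without siControl replicate 2 to 0.40 without siNR4A1 replicate 1. RAB4B differed by 0.18 ± 0.12 (SE) and did not pass. RAB31, the brightest of these probes, differed by 0.05 ± 0.11 (SE).

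Of the 7 tested RABs of late endosomes and lysosomes 1 rose and 0 fell, against 10.8% and 8.7% of all genes. RAB32, which sorts cargo to lysosome-related organelles and binds mitochondria, had 11.02, 10.94 and 11.08 in siNR4A1 and 10.41, 10.66 and 10.55 in siControl. The groups were clearly separate, and the gene rose by 0.48 ± 0.11 (SE; limma, adjusted p = 0.0064). RAB7A, the main RAB of late endosomes, had 11.54, 11.47 and 11.64 in siNR4A1 and 11.48, 11.48 and 11.51 in siControl, a difference of 0.06 ± 0.11 (SE). RAB24 differed by 0.16 ± 0.11 (SE), and its 5 probes lay between -0.09 and 0.16, none past the threshold.

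None of the 10 tested RABs of the endoplasmic reticulum and the Golgi passed, against 19.5% of all genes. The median log2 change of the 10 was 0.01, with a range of -0.33 to 0.13. RAB2A and RAB2B, which act between the 2 organelles, each differed by 0.01 ± 0.11 (SE). The largest difference, for RAB6A, which serves retrograde Golgi traffic and was singled out after its value was seen, was -0.33 ± 0.12 (SE; limma, adjusted p = 0.0675). Of the other 7 RABs in this group, among them RAB33A, RAB39B and the RAB6A retrocopy RAB6C, none was detected often enough to be tested.

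Of the 7 tested secretory RABs 1 rose and 2 fell, RAB8B included, where 10.8% of all genes rose and 8.7% fell. The others changed less than RAB8B. RAB26, found on secretory granules and synaptic vesicles, had 6.95, 7.31 and 7.44 in siNR4A1 and 7.67, 7.57 and 7.58 in siControl, and fell by 0.37 ± 0.13 (SE; limma, adjusted p = 0.0461). That call was lost when any single array other than siNR4A1 replicate 3 was left out, and without siNR4A1 replicate 1, the lowest array, the value was -0.23. RAB3B, of regulated secretion, had 6.43, 6.42 and 6.56 in siNR4A1 and 6.12, 6.27 and 5.98 in siControl, where its probe was not well above background on any array. It was at least 1.07-fold higher in siNR4A1 (the group's mean over the lowest detected signal of each control array). The limma fit tested the log2 change of 0.35, not this bound, and RAB3B passed (adjusted p = 0.0394). The call was lost without siNR4A1 replicate 1 (0.37), 2 (0.38) or 3 (0.30) and without siControl replicate 1 (0.35) or 3 (0.28). RAB3B entered the test only through the siNR4A1 arrays, where it was higher, and its call was also lost with no detection filter (0.35, adjusted p = 0.05012 in limma) and with the authors' log2 values (0.25, adjusted p = 0.07642 in limma). Its log2 change of 0.35 ± 0.11 (SE) became 0.62 with an offset of 16 and 0.22, without a call, with medians of detected probes equalized. RAB27A, which docks secretory vesicles and is named, like TBC1D2 below, after its values were seen, was not well above background on any siNR4A1 array. It was at least 1.06-fold lower there and entered the test only through the siControl arrays. Its log2 change of -0.22 ± 0.11 (SE) did not pass (limma, adjusted p = 0.1834). RAB10, which directs exocytic carriers and had the brightest member probe, had 11.90, 11.99 and 12.03 in siNR4A1 and 11.95, 11.91 and 12.06 in siControl, a difference below 0.01 with an SE of 0.11.

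Of 5 tested RABs placed in no trafficking step 2 rose and 1 fell, where 10.8% of all genes rose and 8.7% fell. RAB40B, whose tail carries a SOCS box that joins it to cullin ubiquitin ligases, had 8.57, 8.49 and 8.29 in siNR4A1 and 7.74, 7.74 and 8.03 in siControl. It rose by 0.61 ± 0.12 (SE), or 1.53-fold (limma, adjusted p = 0.002). Its paralog RAB40C differed by 0.07 ± 0.11 (SE), and the change of RAB40B was 0.54 ± 0.15 (SE of the difference) above it without overlap between the groups (exact permutation p = 0.1, adjusted p = 0.133 over the 12 pairs).

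RAB23, a negative regulator of Hedgehog signalling, had 11.03, 10.96 and 10.95 in siNR4A1 and 10.49, 10.31 and 10.58 in siControl, and rose by 0.52 ± 0.11 (SE; limma, adjusted p = 0.0036). Of its other probes 2 were detected, differed by 0.20 and 0.21 and did not pass, and the mean of the detected probes rose by 0.31. RAB28, linked to cilia and photoreceptors, had 6.98, 7.18 and 6.91 in siNR4A1 and 7.70, 7.59 and 7.46 in siControl, and fell by 0.56 ± 0.12 (SE; limma, adjusted p = 0.0031). Both of its probes fell, the second by 0.41 (adjusted p = 0.0225). RAB34, a RAB of the cilium and the Golgi, differed by -0.02 ± 0.11 (SE).

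**Figure D3:**
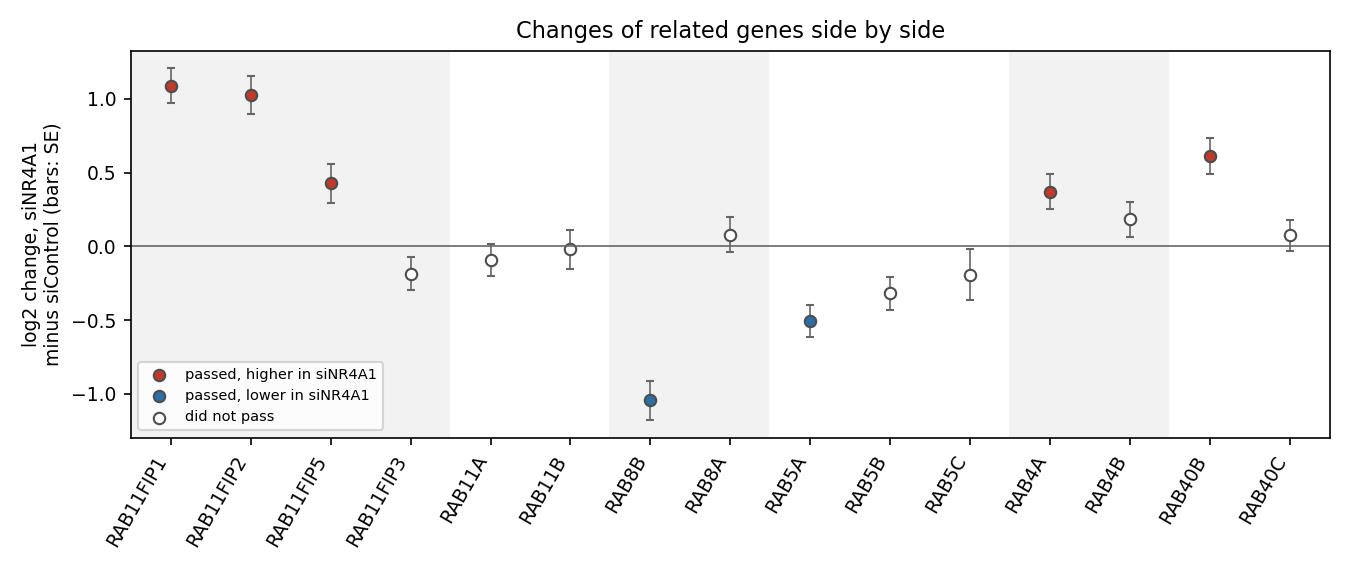
Log2 change in siNR4A1 minus siControl (vertical axis, bars give the SE of the limma fit) for related genes set side by side (horizontal axis, shading separates the sets), with red for those that passed upward and blue downward. RAB8B at -1.04 stands beside RAB8A at 0.08, and RAB40B at 0.61 beside RAB40C at 0.07.

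The TBC1D proteins, which carry the domain that ends RAB signalling, had 25 tested members. Of these 6 fell and 0 rose, where 8.7% of all genes fell and 10.8% rose. Their median log2 change was -0.01, with 10 members higher and 15 lower in siNR4A1 whatever their test. TBC1D8, a TBC protein first described in vascular cells, had 9.13, 9.03 and 8.91 in siNR4A1 and 9.43, 9.72 and 9.44 in siControl and fell by 0.51 ± 0.12 (SE; limma, adjusted p = 0.0063). TBC1D13, which inactivates RAB35, had 6.60, 6.81 and 6.82 in siNR4A1 and 7.35, 6.98 and 7.37 in siControl and fell by 0.49 ± 0.13 (SE; limma, adjusted p = 0.0114). TBC1D14, a RAB11 binder that restrains autophagosome formation, had 8.33, 8.43 and 8.20 in siNR4A1 and 8.82, 8.86 and 8.58 in siControl and fell by 0.43 ± 0.12 (SE; limma, adjusted p = 0.0154). In each of these the highest siNR4A1 array lay below the lowest control array.

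The other 3 were smaller in change. TBC1D15, a RAB7 regulator at mitochondria, had 8.55, 8.30 and 8.16 in siNR4A1 and 8.81, 8.91 and 8.56 in siControl, so that replicate 1 of siNR4A1 nearly met replicate 3 of siControl, and fell by 0.42 ± 0.13 (SE; limma, adjusted p = 0.0288). TBC1D10B, which acts on RAB35 and RAB27A, had 7.22, 7.29 and 7.26 in siNR4A1 and 7.71, 7.67 and 7.60 in siControl and fell by 0.40 ± 0.11 (SE; limma, adjusted p = 0.0136). Its paralog TBC1D10A differed by 0.17 ± 0.14 (SE), and the change of TBC1D10B minus that of TBC1D10A was -0.57 ± 0.19 (SE of the difference; exact permutation p = 0.1, adjusted p = 0.133 over the 12 pairs). TBC1D23, an adaptor that captures endosomal vesicles at the Golgi, had 7.31, 7.43 and 7.20 in siNR4A1 and 7.63, 7.78 and 7.55 in siControl and fell by 0.34 ± 0.11 (SE; limma, adjusted p = 0.0445).

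With medians of detected probes equalized, the calls of TBC1D8 (-0.45), TBC1D14 (-0.41), TBC1D15 (-0.40) and TBC1D23 (-0.39) were lost. Several of these falls also rested on single arrays. The call of TBC1D13 was lost without siControl replicate 1 (-0.43) or siNR4A1 replicate 1 (-0.42), that of TBC1D14 without siControl replicate 1 (-0.40) or siNR4A1 replicate 3 (-0.37), and that of TBC1D10B without siNR4A1 replicate 1 (-0.38) or 3 (-0.40). TBC1D15 lost its call without siControl replicate 1 (-0.39) or 2 (-0.35) or siNR4A1 replicate 2 (-0.40) or 3 (-0.33). TBC1D23 kept its call when siControl replicate 3 was left out and lost it without any other array, at -0.28 to -0.40. The brightest TBC1D probes that did not pass, TBC1D9B and TBC1D20, differed by 0.22 ± 0.11 and 0.22 ± 0.12 (SE). Dimmer second probes of these genes differed by 0.05 and 0.12 and did not pass. TBC1D2 was not well above background on any siControl array and entered the test only through the siNR4A1 arrays. It was at least 1.05-fold higher there, and its log2 change of 0.30 ± 0.12 (SE) did not pass (limma, adjusted p = 0.0947). The file also lists near-identical copies of TBC1D3, of which 4 were tested and none passed, and their probes may read each other's transcripts.

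The remaining regulators form short lists, beside which 10.8% of all genes rose and 8.7% fell. Of 3 tested effectors and interactors outside the RAB11 family 1 fell, RABEPK, an effector of RAB9 in transport to the Golgi, with 10.56, 10.73 and 10.48 in siNR4A1 and 11.05, 10.99 and 11.01 in siControl. The control arrays were nearly equal, and the gene fell by 0.43 ± 0.11 (SE; limma, adjusted p = 0.0121), a call lost without siNR4A1 replicate 3 (-0.37) and with medians of detected probes equalized (-0.33). RABAC1, a membrane protein that frees RABs from GDI, was higher on every siNR4A1 array. It did not pass, at 0.30 ± 0.11 (SE; limma, adjusted p = 0.0596), although it did without siControl replicate 3 (0.35). It also did with the authors' log2 values (0.28) and with only probes detected on all 6 arrays (0.30). RABEP1, the RAB5 effector rabaptin, differed by 0.24 ± 0.12 (SE). None of the 4 exchange factors in the set passed, with RAB3IP, which activates RAB8, at 0.23 ± 0.11 (SE) and RAB3IL1 at -0.03 ± 0.11 (SE). A second, dimmer RAB3IP probe differed by -0.01. None of the 4 RABGAP and RAB3GAP proteins passed either, with RAB3GAP1 at -0.02 and RABGAP1 at -0.11.

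The wider RAB machinery was followed in lists of genes outside the symbol rule. GDI2, which extracts RABs from membranes, had 10.92, 11.03 and 10.72 in siNR4A1 and 11.28, 11.26 and 11.15 in siControl. It fell by 0.34 ± 0.11 (SE; limma, adjusted p = 0.0478), a call lost without any array but siControl replicate 3, at -0.25 to -0.41. It was also lost with an offset of 16 (-0.34), with no detection filter (-0.34), with array weights (-0.31) and with medians of detected probes equalized (-0.25).

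The escort proteins CHM and CHML, which present RABs for lipid attachment, differed by -0.01 ± 0.11 and 0.23 ± 0.12 (SE), and RABGGTB, the catalytic subunit of the transferase, by 0.25 ± 0.11 (SE), none past the threshold. RABGGTA was not tested. Of 25 exchange factors outside the symbol rule 5 rose and 2 fell, with a median log2 change of -0.05, and for these and the next 3 lists the shares of all genes were 10.8% higher and 8.7% lower. RIN1, which activates RAB5 and responds to RAS, rose by 0.73 ± 0.13 (SE; limma, adjusted p = 0.000964), with 7.86, 7.35 and 7.53 in siNR4A1 and 6.76, 6.97 and 6.81 in siControl. The DENN-domain factors DENND6A and SBF1 rose by 0.55 ± 0.11 and 0.49 ± 0.11 (SE), with groups that did not overlap. ANKRD27, which activates RAB21, had 8.01, 7.58 and 7.83 in siNR4A1 and 8.21, 8.69 and 8.08 in siControl, with the lowest control array just above the highest siNR4A1 array. It fell by 0.52 ± 0.15 (SE; limma, adjusted p = 0.0214), a call lost without siControl replicate 2 (-0.34) or siNR4A1 replicate 2 (-0.41) or 3 (-0.53). An offset of 16 (-0.60) also ended it. With medians of detected probes equalized ANKRD27 (-0.53) and RIN1 (0.66) lost their calls.

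Of 14 TRAPP subunits, which tether vesicles and activate RABs at the Golgi, 2 rose and 3 fell, with a median log2 change of 0.10. TRAPPC6B had 8.69, 8.94 and 8.82 in siNR4A1 and 7.75, 8.18 and 7.95 in siControl and rose by 0.86 ± 0.13 (SE; limma, adjusted p = 0.0001732), while TRAPPC1 fell by 0.51 ± 0.11 (SE). With the mean of its probes TRAPPC6B rose by 0.49. Of 26 further effectors 6 rose and 1 fell, with a median of 0.07. RILPL1, which binds RAB8 and RAB10, rose by 0.52 ± 0.11 (SE), the RAB5 effector APPL1 by 0.50 ± 0.11 (SE), and BICD2, the dynein adaptor recruited by RAB6, fell by 0.69 ± 0.15 (SE; limma, adjusted p = 0.0046). With medians of detected probes equalized TRAPPC1 (-0.43), BICD2 (-0.64) and USP6NL (0.33) lost their calls. Of 7 TBC-domain proteins without a TBC1D symbol 1 rose, USP6NL, which acts on RAB5, by 0.37 ± 0.11 (SE; limma, adjusted p = 0.0259), a call lost without siControl replicate 2 (0.30) or siNR4A1 replicate 1 (0.38), 2 (0.37) or 3 (0.35).

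Across the 19 members that passed, the sign was the same under each of the 16 other processing choices that tested the member. The calls of 8 of them, RAB11FIP1, RAB11FIP2, RAB40B, RAB23, RAB32, RAB5A, RAB28 and RAB8B, were lost only with array medians equalized. With medians of detected probes equalized RAB11FIP5, RAB4A, RAB3B, RAB26, RABEPK, TBC1D8, TBC1D14, TBC1D15 and TBC1D23 lost theirs, and with an offset of 16 RAB11FIP5, RAB4A, RAB26, TBC1D15 and TBC1D23 did. RAB26 and TBC1D23 also lost theirs with no detection filter and with an intensity trend, and TBC1D23 with array weights. Among the members of lower change, the plot of alternatives shows where RAB26, TBC1D23, RAB3B, RAB4A and RAB11FIP5 crossed the threshold.

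**Figure D4:**
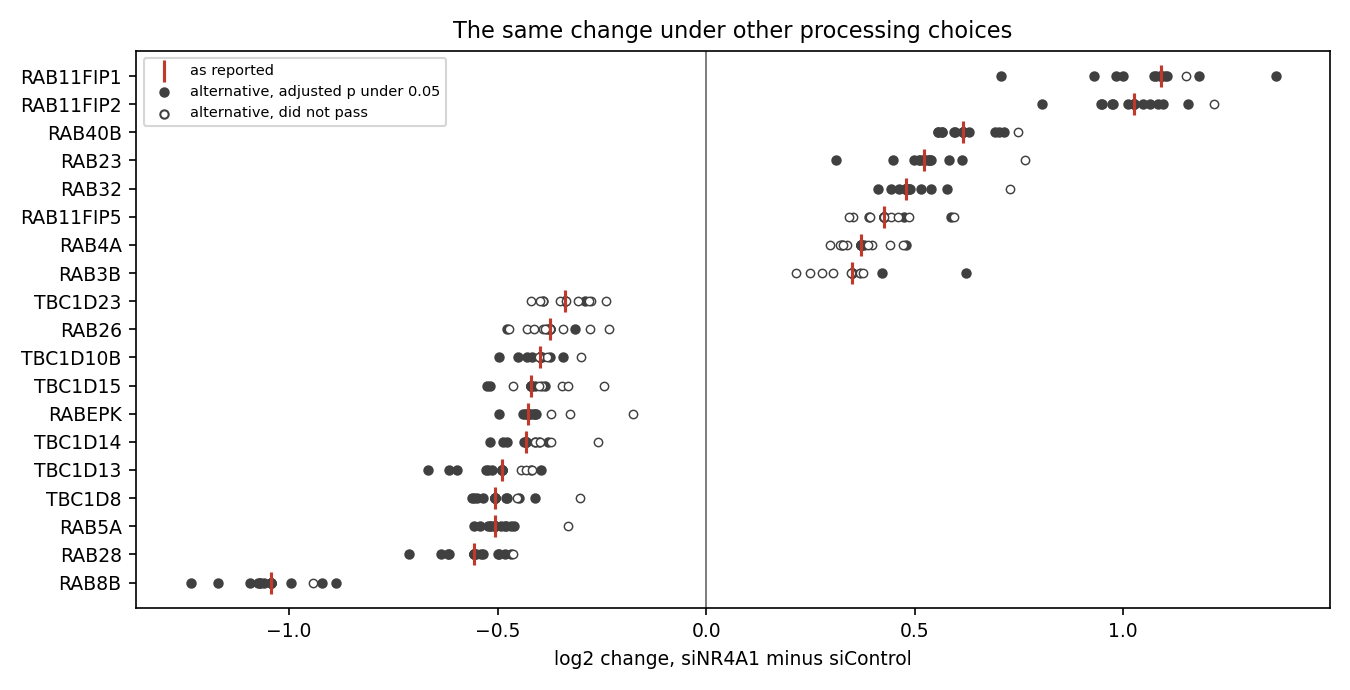
Log2 change in siNR4A1 minus siControl (horizontal axis) of each member that passed (vertical axis), as reported (red bar) and under each alternative (points, filled where the adjusted p was under 0.05 and open where it was not). The values of RAB11FIP1 lie between 0.71 and 1.36 and those of RAB8B between -1.24 and -0.89, and no point crosses 0.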

How the data were processed

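Total RNA of 6 PANC-1 samples was turned into biotin-labelled cRNA for Illumina BeadChips, per the labels' protocols. The submitters' processing notes name BeadStudio. The deposited table gives each probe's intensity on a linear scale, neither normalized nor background-subtracted, without detection p-values or control probes. The authors' deposited log2 values match quantile normalized log2 signals to within 0.005 and served as an alternative.

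Intensities were corrected with normexp (offset 50), quantile normalized and put on the log2 scale, which understates changes of dim genes. Background on an array was set at the peak of the density of its log2 signals (bandwidth 0.03), its spread was estimated on the lower side of that peak, and probes above the 95% point on at least 3 arrays were kept, 18189 of them named, with the brightest probe standing for each of 13715 genes. Symbols were updated through the RefSeq table of GRCh38.p14, which also gave the promoters. Groups were compared with limma 3.58.1 (R 4.3.3) without covariates and with Benjamini-Hochberg adjustment over all genes, after the steps were tested on simulated data. No label gives a chip or scan batch. Replicate numbers recur in both groups, but no label says that they pair the arrays, so the block served only as an alternative. Deviations from the group mean of same-numbered arrays correlated at 0.03, 0.08 and 0.17. Members, lists and gene pairs were chosen with earlier results of these data known. Named were the members past the threshold, their paralogs, bright members of each role list, genes of lipid attachment and membrane extraction and up to 4 genes of each other list. One gene under this rule is not reported here.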

Additional observations from a re-analysis of the deposited data

How the results depend on the processing

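With array medians equalized, 0 members passed in either direction and 0 of all genes in limma, the median of all genes moved to 0.13 and that of the members to 0.14, so that members stood where all genes did. With medians of detected probes equalized, 5 members rose and 5 fell, or 12% of members against 9.14% of all genes. In all 1254 genes passed, and the median was -0.0152 for the members and -0.0229 for all genes. Leaving out 1 array at a time gave 5 to 8 members higher, 6 to 12 lower, members' medians of -0.0029 to 0.0266 and 1489 to 2867 genes in all. The shares that passed were 13.3% to 24.1% of members and 10.9% to 20.9% of all genes. The replicate block, an alternative since the numbers are not shown to pair the arrays, gave 8 members higher, 12 lower and 2998 genes in all. It kept all 19 calls and added RAB5B, and its shares were 24.1% of members and 21.9% of all genes. An offset of 16 gave 6 and 8 members, or 16.9% of members against 14.8% of all genes. The batch alternative was not run, as no header gives a batch. Signs turned only for genes that had not passed, and in no case did the turned value pass. With array medians equalized these were RAB5C (0.0338), RAB11FIP3 (0.0233), RAB34 (0.21), RAB3IL1 (0.14), RAB3GAP1 (0.21), RABGAP1 (0.10), RAB11A (0.14), RAB11B (0.0139), RAB10 (0.24) and CHM (0.18). With medians of detected probes equalized these were RAB34 (0.0577), RAB3GAP1 (0.063), RAB10 (0.0889) and CHM (0.025), and with array weights RAB2A (-0.0061) and RAB11B (0.0342). Leaving out 1 array at a time gave ranges across 0 for RAB2A (-0.0412 to 0.0698), RAB5C (-0.3724 to 0.0597), RAB8A (-0.0029 to 0.1397), RAB31 (-0.0073 to 0.0796), RAB2B (-0.0681 to 0.0695), RAB34 (-0.0586 to 0.047), RAB3IL1 (-0.1014 to 0.0401), RAB11B (-0.1654 to 0.1182), RAB3GAP1 (-0.0806 to 0.0414), RAB10 (-0.0307 to 0.041) and CHM (-0.0628 to 0.0589). The cause was not tested. Signal over background limits RAB3B, RAB27A and TBC1D2, each undetected in a whole group.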
